A study of Mus musculus with 5 samples.

Results

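Fibroblasts that carried UMIs of Pi16, together with Clec3b or Dpp4, were picked out of single-cell RNA sequencing data of the mouse temporomandibular joint (TMJ) disc, and they numbered 1786 of 51948 barcodes. A barcode was taken when mitochondrial genes made up at most 30% of its UMIs (unique molecular identifiers, 1 per captured transcript), when it held at least 1000 UMIs, at least 2 UMIs of Pi16 and at least 1 UMI of Clec3b or Dpp4, when Chad stood below 2000 CPM (UMIs scaled to a total of 1000000), and when it had 0 UMIs of Cdh5 and of Tyrobp. Pi16 encodes a secreted and membrane-linked peptidase inhibitor, Clec3b encodes tetranectin, and Dpp4 encodes a cell-surface dipeptidase. Chad encodes chondroadherin of the disc's chondrogenic cells, Cdh5 the cadherin of endothelial junctions, and Tyrobp an adaptor of myeloid cells. The levels of these 6 genes chose the cells and are given below as a description only. In the GRCm38 assembly with GENCODE M21 annotation, Pi16 lies on chromosome 17, 29317680 to 29330593, plus strand, Clec3b on chromosome 9, 123150946 to 123157432, plus strand, and Dpp4 on chromosome 2, 62330073 to 62412231, minus strand.

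Discs were profiled in 5 libraries, 1 per condition, from mice that the labels give as C57BL/6 and wild type throughout. For the injury model the study's methods name mice with the alleles Myh11-CreER+ and Tm fl/- instead, a tamoxifen-inducible Cre of smooth muscle and a tdTomato reporter, so that the genotype of the injured mice is not settled. The methods also place the Cre transgene on the Y chromosome and give lineage-traced mice of that genotype as males. Untreated mice gave 4 libraries, of which that of 3 d was made of pooled male and female pups in 1 suspension and those of 3 w, 16 w and 78 w from males. For the injury model the methods give a needle puncture of the disc's anterior band at 5 weeks and collection 2 weeks later. The injured library was taken as 7 weeks old on that basis. Neither the labels nor the methods give the sex of the mice in this library directly. Discs were dissected away from the adjoining tissue under a stereomicroscope and digested to single cells. No condition had a second library. Intervals given below are 95% intervals for counting error alone, no test between conditions was possible, and a stage cannot be told apart from its library.

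Pi16-positive fibroblasts are known in many organs as cells of the adventitia, the loose connective tissue around larger vessels, and of fascia and other tissue boundaries. They are usually described with Dpp4, Cd34 and the Ly6a product Sca-1, are rich in elastic-fibre proteins, and are regarded in mouse atlases as a shared or reserve state of fibroblasts. A second widespread fibroblast state is marked by Col15a1 and sits nearer to parenchyma, while the bulk of the TMJ disc consists of fibrochondrocyte-like and tendon-like cells.

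The Pi16 fibroblasts numbered 1070 at 3 d, 124 at 3 w, 140 at 16 w, 432 at 78 w and 20 in the injured discs. The libraries held 15169, 9401, 8786, 10125 and 8467 barcodes, with 125130270, 125427849, 88998394, 105309834 and 31585993 UMIs. The summed UMIs behind the levels of Pi16 fibroblasts were 13991459, 1904399, 1408814, 4802489 and 92414, so that values for the 20 cells of the injured library are by far the least precise. The median depth of a Pi16 fibroblast was 11551, 13834, 9373, 10323.5 and 3848 UMIs, and its median number of detected genes was 3054.5, 3443, 2704, 2813.5 and 1416.5. Between 19 and 39 barcode sequences were shared by any 2 libraries, and no shared barcode was a Pi16 fibroblast in both.

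As a share of the cells that passed the same limits on mitochondrial UMIs, depth, Cdh5 and Tyrobp, Pi16 fibroblasts were most frequent at 3 d and rarest in the injured library. They made up 8.90% (8.40 to 9.42, Clopper-Pearson interval, 1070 of 12024 cells) at 3 d, 1.49% (1.24 to 1.78, 124 of 8307) at 3 w, 1.75% (1.48 to 2.07, 140 of 7985) at 16 w, 4.80% (4.37 to 5.26, 432 of 9005) at 78 w and 0.296% (0.181 to 0.457, 20 of 6752) in the injured library. Since deeper cells reach 2 UMIs more easily, each cell was also thinned at random to 2000 UMIs, which left out 654, 105, 85, 145 and 981 shallower cells. The shares were then 1.87% (1.63 to 2.14), 0.366% (0.247 to 0.522), 0.848% (0.658 to 1.08), 2.61% (2.29 to 2.96) and 0.139% (0.0599 to 0.273). The order of 3 d and 78 w thus turned at 2000 UMIs. With cells thinned to 4000 UMIs it did not turn, with 4.25% at 3 d and 3.43% at 78 w. In each of these versions 78 w lay above 16 w and 3 w, and the injured library lay below all others.

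**Figure D1:**
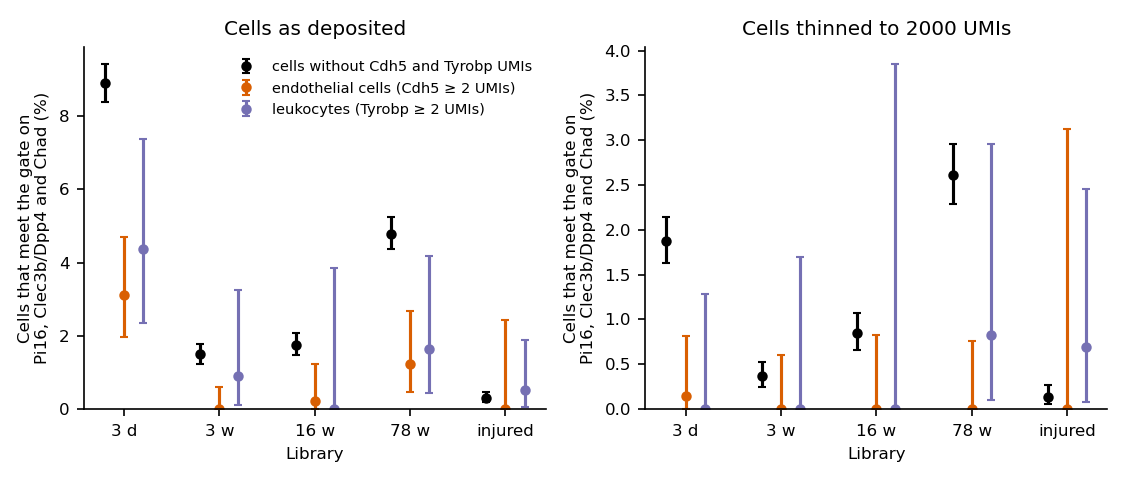
Percent of cells that met the criteria on Pi16, Clec3b or Dpp4, and Chad, by library, in cells as deposited (left) and after each cell was thinned to 2000 UMIs (right); black, cells with 0 UMIs of Cdh5 and Tyrobp; orange, endothelial cells; purple, leukocytes; bars, 95% Clopper-Pearson intervals for counting error. The black points were 8.90, 1.49, 1.75, 4.80 and 0.296% as deposited and 1.87, 0.366, 0.848, 2.61 and 0.139% after thinning.

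Free RNA and doublets can give Pi16 UMIs to barcodes of other cell types, so the same criteria on Pi16, Clec3b, Dpp4 and Chad were applied to endothelial cells with at least 2 UMIs of Cdh5 and to leukocytes with at least 2 UMIs of Tyrobp. At 3 d, 22 of 703 endothelial cells (3.13%, 1.97 to 4.70) and 13 of 297 leukocytes (4.38%, 2.35 to 7.37) met them, with median depths of 7931 and 12277 UMIs against 8127.5 in the cells of the denominator. Both 3 d shares were below the 8.90% of the remaining cells, and after thinning 1 of 680 endothelial cells and 0 of 286 leukocytes met the criteria. At 3 w, 0 of 618 endothelial cells and 2 of 219 leukocytes (0.913%, 0.111 to 3.26) met them, and at 16 w 1 of 449 (0.223%, 0.00564 to 1.23) and 0 of 94. The endothelial intervals, with an upper bound of 0.595% at 3 w, lay below the 1.49% and 1.75% of the remaining cells, while the leukocyte intervals, with upper bounds of 3.26% and 3.85%, did not. At 78 w the shares were 6 of 486 endothelial cells (1.23%) and 4 of 242 leukocytes (1.65%), again below 4.80%. In the injured library 0 of 150 endothelial cells and 2 of 380 leukocytes (0.526%, 0.0638 to 1.89) met them, so that the 0.296% of the remaining cells was not above this background. A part of the 3 d cells and of the 20 injured cells may therefore hold Pi16 UMIs that are not their own. The parts of free RNA and of doublets were not tested. Pi16 alone was also counted in cells with at least 2 UMIs of Rgs5, a pericyte gene, which the criteria do not leave out. At 3 d, 40 of 592 of them (6.76%, 4.87 to 9.09) held at least 2 Pi16 UMIs, beside 3.70% of endothelial cells and 5.72% of leukocytes. At 3 w, 16 w, 78 w and in the injured library the share of cells with Rgs5 was 0.671, 1.31, 1.47 and 0%.

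Among the Pi16 fibroblasts, the median cell had 5 UMIs of Pi16 at 3 d, 7 at 3 w, 9.5 at 16 w, 11 at 78 w and 3.5 in the injured library, and the highest had 69, 85, 159, 249 and 15. Clec3b met the second criterion in nearly all of them, with a UMI in 1069 of 1070, 123 of 124, 140 of 140, 431 of 432 and 20 of 20 cells. Dpp4 UMIs were seen in 105, 24, 36, 116 and 1 of these cells, which is 9.81, 19.4, 25.7, 26.9 and 5.00%. A share of 22.1, 13.7, 10.7, 10.2 and 45.0% sat at the threshold with exactly 2 UMIs of Pi16.

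Levels just inside and just outside the threshold of 2 Pi16 UMIs were compared next. Cells that met all other criteria were grouped by 0, 1, 2, 3 to 5 and 6 or more UMIs of Pi16, and levels are given in CPM, here from UMIs summed over the cells of a group. Mfap5, a microfibril-associated glycoprotein, stood at 648, 979.8, 1090.2, 1291 and 1429 CPM over these classes at 3 d and at 131, 246, 306, 355 and 778 CPM at 78 w, but at 3 w the order was broken, with 216, 627, 1015, 824 and 1356 CPM. Fmod, a collagen-binding proteoglycan of dense tissue, ran the other way at 78 w, with 3559, 2021, 1785, 1126 and 708 CPM, and at 16 w with 3544, 2598, 1150.5, 203 and 459 CPM, and at 3 w less regularly with 2359.8, 696, 1616, 320.1 and 635 CPM. Ly6a, which encodes the progenitor antigen Sca-1, was at 311, 656, 1319, 791 and 1300.4 CPM at 16 w, so that the class of 2 UMIs stood above the next. Cd34, a sialomucin of progenitors and adventitial cells, was at 220.3, 289, 385, 452 and 713 CPM at 78 w and at the flatter 391, 423, 438, 466 and 520.2 CPM at 3 d. The classes of the injured library held 9, 6 and 5 cells inside the threshold and moved irregularly.

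**Figure D2:**
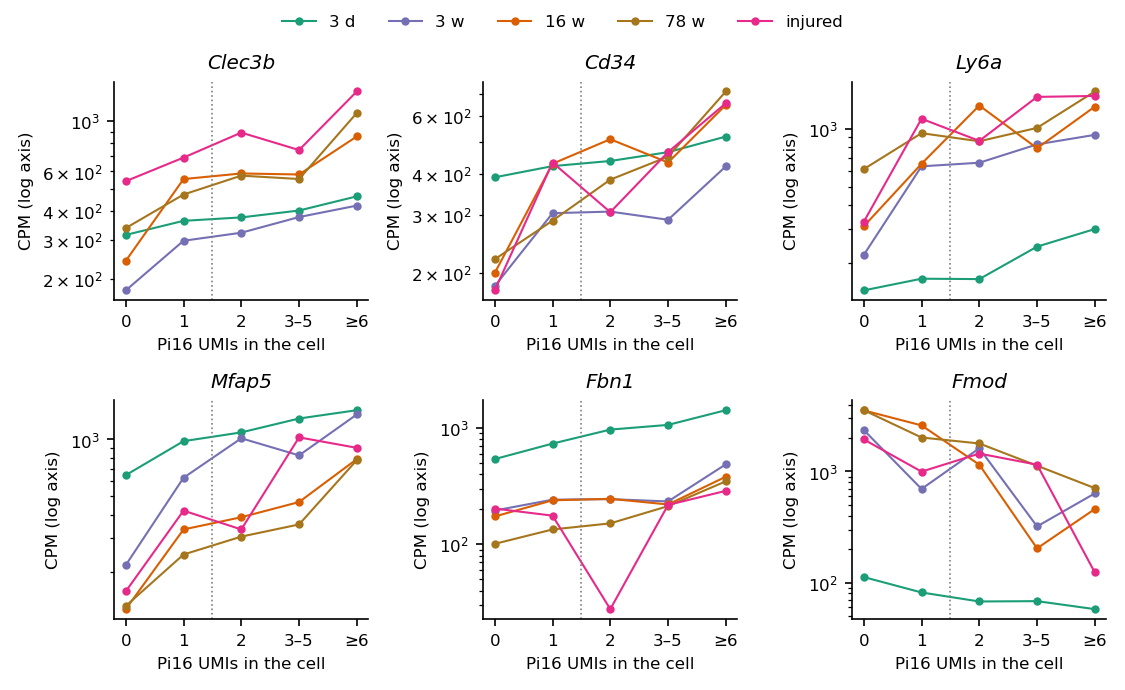
CPM (log axis) of Clec3b, Cd34, Ly6a, Mfap5, Fbn1 and Fmod in cells that met all criteria other than the Pi16 minimum, by the number of Pi16 UMIs in the cell and by library; the dotted line marks the minimum of 2 UMIs, and Clec3b is itself a criterion. Mfap5 was higher and Fmod lower in the class of 6 or more Pi16 UMIs than in the class of 0 in each of the 5 libraries, while the classes between were not always in order.

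The label of adventitial fibroblasts was checked with 23 genes of such cells beyond the selecting ones. Other stromal cells of the same library served for comparison: 39591 cells with at least 10 UMIs of the fibroblast genes Dcn, Col1a1, Col1a2, Col3a1 and Lum, with fewer than 2 UMIs of each of Rgs5, Myh11, Sox10, Ttn and Alas2, and outside the Pi16 fibroblasts. Across all genes with at least 100 UMIs, 2.97% of 10280 were at least 2-fold higher in the Pi16 fibroblasts on the geometric mean of the 5 ratios, taken after 1 count was added to both groups, and higher in each library, and 2.85% were as clearly lower. These were 305 and 293 genes, and without the injured library, an alternative chosen after seeing the data, 517 and 339. Of the 20 adventitial genes that reached this count, 13 were higher by that measure and 0 lower, and the median log2 ratio was 1.78 beside −0.01 for all genes tested. Since the members were selected within the same cells, these figures describe the cells and are no test. The added count, 10.8 CPM in the injured library, pulls the geometric means of low genes toward 1, while ratios given for single libraries have no count added.

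Scara5, a ferritin receptor of fibroblasts, had a ratio to other stromal cells with a geometric mean of 19.7, the highest of the genes ranked, which leave out the selecting genes and those under 100 UMIs. It was found at 28.2 CPM at 3 d, 149.7 at 3 w, 144 at 16 w, 146 at 78 w and 173 (99.0 to 281) in the injured library, beside 4.13, 5.45, 2.17, 5.40 and 3.04 CPM in other stromal cells. Ly6a was at 253 CPM at 3 d, 862 at 3 w, 1236 at 16 w, 1387 at 78 w and 1234 (1018 to 1482) in the injured library, beside 51.8, 29.6, 45.6, 113 and 84.4 CPM. Each of the 5 values lay above its counterpart, with ratios of 4.89 to 29.1. The related surface antigen Ly6c1 had a geometric mean ratio of 12.1 and ratios of 3.64 to 27.1. Cd248, the stromal glycoprotein endosialin, was at 158 CPM at 3 d, 50.9 at 3 w, 131 at 16 w, 162 at 78 w and 86.6 (37.4 to 171) in the injured library, beside 47.0, 1.94, 3.99, 7.18 and 8.76 CPM. Cd34 was at 485 CPM at 3 d, 370.2 at 3 w, 606 at 16 w, 632 at 78 w and 454 (328 to 614) in the injured library, and its ratio ran from 2.04 to 9.85. Procr, the endothelial protein C receptor that also marks stromal progenitors, had ratios of 4.71 to 10.7.

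Several adventitial genes were closer to the other stromal cells. Sema3c, a secreted guidance cue often named with Pi16, was at 590.1 CPM at 3 d, 84.5 at 3 w, 174 at 16 w, 189 at 78 w and 357 (246 to 501) in the injured library, beside 219.9, 84.7, 139, 127 and 129.7 CPM, with a 3 w ratio of 0.999 (0.849 to 1.17). Ackr3, a scavenging chemokine receptor, had a geometric mean ratio of 1.60, Creb5, a transcription factor, of 1.30, and Limch1, an actomyosin regulator, of 0.994, a value that was 1.00 with scaling by the median of ratios. Dact2, Pla1a and Wnt2 had too few UMIs to be counted. Among the 12 measured genes of the Col15a1-type state, 4 were higher and 0 lower with a median log2 ratio of 0.71, and Col15a1, a basement-membrane collagen, was itself at 55.4 CPM at 3 d, 75.6 at 3 w, 49.0 at 16 w, 43.5 at 78 w and 162 (90.8 to 268) in the injured library, beside 105, 81.8, 69.6, 75.0 and 138 CPM. Apod, a lipid-binding apolipoprotein, and Cxcl12, a chemokine that retains leukocytes, both of that list, had ratios of 4.77 and 3.43. Of 12 general fibroblast genes 3 were higher, namely Col3a1, Thy1 and Twist2, and 0 lower, with a median log2 ratio of 0.20. Of the other genes Dcn, the proteoglycan decorin, had a ratio of 1.03, Prrx1, a mesenchymal transcription factor, of 0.939, and Pdgfra, the platelet-derived growth factor receptor alpha, of 1.84.

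**Figure D3:**
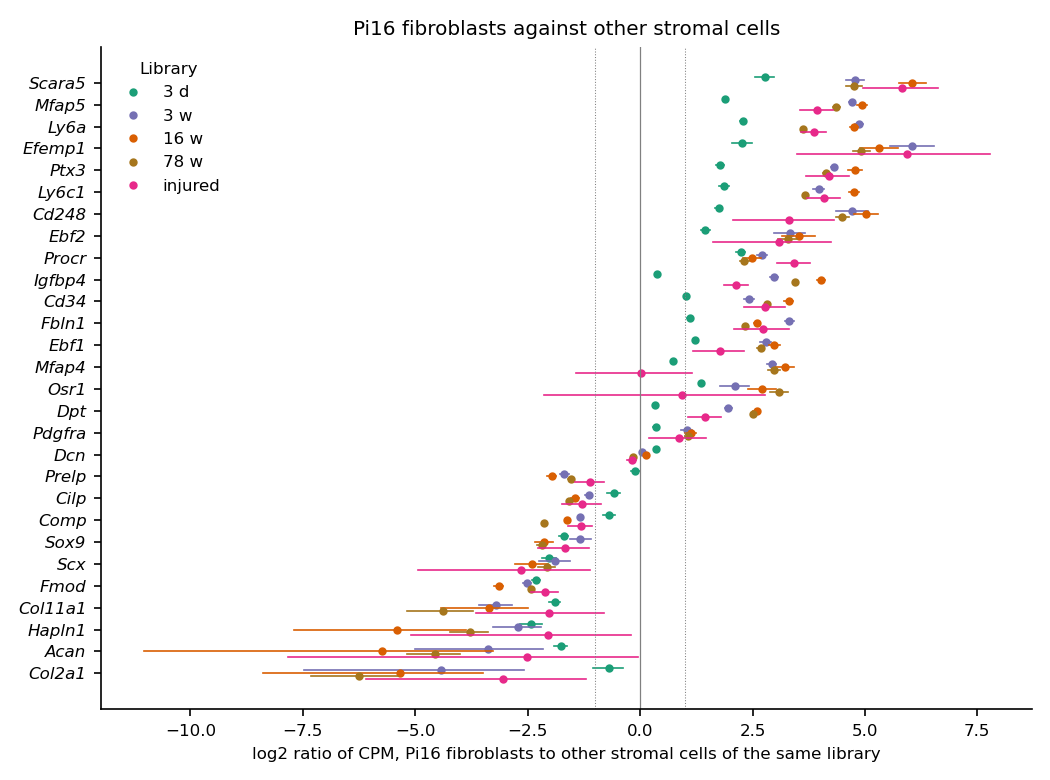
log2 ratio of CPM in Pi16 fibroblasts to other stromal cells of the same library for 28 named genes (rows), 1 coloured point per library with its 95% counting interval; dotted lines mark 2-fold. Scara5 to Ebf1 lay to the right of 0 in all 5 libraries and Prelp to Col2a1 to the left, the 3 d points (green) mostly nearer to 0.

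Defining genes of other lineages were summed in both groups of cells. The 12 endothelial genes summed to 64.1, 59.9, 75.2, 54.8 and 54.1 CPM, beside 65.6, 42.4, 48.5, 46.6 and 49.9 CPM in other stromal cells, with Eng, a TGF-beta co-receptor that fibroblasts share, as the most abundant in each library. Endothelial genes at 0 numbered 1, 4, 4, 2 and 11, the selecting gene Cdh5 included. The 12 leukocyte genes summed to 21.7, 22.1, 12.1, 30.2 and 43.3 CPM, beside 29.1, 14.6, 17.2, 32.7 and 84.7 CPM. Of these, 1, 5, 5, 1 and 8 were at 0, and the most abundant were C1qb and Lyz2 at 3 d (49 UMIs each), Cd68 at 3 w, and Lyz2 at 16 w and 78 w, while the injured library had 4 of these genes at 1 UMI each. Schwann cell genes summed to 28.2, 19.4, 44.7, 46.6 and 32.5 CPM, with S100b in front throughout, and muscle genes to 39.0, 11.6, 3.55, 4.79 and 0 CPM. Adipocyte genes summed to 18.2, 30.5, 29.1, 21.4 and 10.8 CPM, while Adipoq, the adipocyte hormone, was at 0 from 3 w on and in the injured library. Red-cell RNA was highest at 3 d: the 4 globin genes summed to 1496 CPM in Pi16 fibroblasts and to 625 CPM in other stromal cells at 3 d, and to 2.10, 3.55, 14.4 and 32.5 CPM in the other libraries, beside 4.00, 2.85, 9.47 and 364 CPM in other stromal cells. The other stromal cells were limited to fewer than 2 UMIs of Sox10, Ttn and Alas2, and the Pi16 fibroblasts were not. Schwann, muscle and red-cell levels in the pair are therefore not matched. What part these markers had in the results was not tested.

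Mural cells are the pericytes and smooth muscle cells of vessel walls. The other stromal cells were chosen without mural UMIs whereas the Pi16 fibroblasts were not, so mural levels in the pair are not matched. At least 2 UMIs of Rgs5, a pericyte gene, or of Myh11, the smooth muscle myosin, were seen in 31 of 1070 (2.90%), 0 of 124, 1 of 140, 8 of 432 (1.85%) and 0 of 20 Pi16 fibroblasts. The 8 cells at 78 w held 152 of 154 Myh11 UMIs and 485 of 500 UMIs of Tagln, a smooth muscle actin-binding protein. Without them Myh11 was at 0.428 CPM instead of 32.1 and Tagln at 3.21 instead of 104. The 12 mural genes summed to 289, 67.7, 84.5, 344 and 32.5 CPM with these cells, beside 185, 133, 199, 216 and 96.1 CPM in other stromal cells, led by Tagln, Cspg4, Cspg4 and Tagln in the 4 normal libraries, with Rgs5, Acta2 and Abcc9 tied at 1 UMI each in the injured one, and 0, 3, 2, 0 and 9 of them were at 0. Abcc9, a potassium channel subunit and Kcnj8, the channel that it pairs with, both usually named as pericyte genes, did not fall in this way. Abcc9 was at 19.2 CPM at 3 d, 16.3 at 3 w, 27.0 at 16 w, 47.5 at 78 w and 10.8 (0.274 to 60.3) in the injured library in Pi16 fibroblasts, beside 4.66, 0.363, 0.526, 0.761 and 0.607 CPM, and at 17.7 CPM (3 d) and 48.6 CPM (78 w) once the cells with mural UMIs were left out. Kcnj8 was at 9.22 CPM at 3 d, 1.58 at 3 w, 4.26 at 16 w, 10.2 at 78 w and 0 in the injured library, beside 2.28, 0.317, 1.01, 0.553 and 0.266 CPM, and without those cells at 8.32 CPM (3 d), 4.29 CPM (16 w) and 10.3 CPM (78 w).

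Xist, which is transcribed from the inactive X chromosome of female cells, was at 853 CPM at 3 d, 0 at 3 w, 1.42 at 16 w, 0.625 at 78 w and 682 CPM in the injured library. The first 4 values correspond to pups of both sexes and to males, and the last was near the level of the pups, so that the injured library held female cells. Comparisons of the injured library, and of the 3 d library, with the male stages therefore cannot be told apart from sex. Male mice of the Cre genotype would carry no female cells, and which mice gave the injured library is not settled.

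Genes of elastic fibres and microfibrils were mostly higher. Of 16 such genes measured, 11 were at least 2-fold higher than in other stromal cells and higher in each library, 0 were lower, and the median log2 ratio was 1.53. Mfap5 was at 1311 CPM at 3 d, 1164 at 3 w, 702 at 16 w, 653 at 78 w and 725 (562 to 921) in the injured library, beside 352, 44.3, 22.8, 31.7 and 47.4 CPM, a geometric mean ratio of 14.9. Its 3 d ratio of 3.73 (3.66 to 3.79) was the smallest, and the other 4 ratios reached from 15.3 (11.8 to 19.6) in the injured library to 30.8 (28.4 to 33.3) at 16 w. Efemp1, the extracellular glycoprotein fibulin-3, was at 21.6 CPM at 3 d, 41.5 at 3 w, 58.9 at 16 w, 122 at 78 w and 32.5 (6.69 to 94.9) in the injured library, beside 4.50, 0.626, 1.47, 4.01 and 0.531 CPM. Emilin2, a glycoprotein of elastic tissue, Fbln1, the matrix protein fibulin-1, and Loxl1, which crosslinks elastin, had geometric mean ratios of 6.44, 5.12 and 4.39. Eln, elastin itself, was at 5661 CPM at 3 d, 944 at 3 w, 141 at 16 w, 40.8 at 78 w and 32.5 (6.69 to 94.9) in the injured library, beside 2067, 113, 12.2, 7.54 and 111 CPM, so that it was higher in the 4 normal libraries and, on 3 UMIs, lower in the injured one. Emilin1, a relative of Emilin2, was below the other stromal cells in each library, with ratios of 0.457 to 0.737.

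Other matrix genes divided by kind. Among 18 fibronectin, tenascin and matricellular genes, 9 were higher and 2 lower with a median log2 ratio of 0.94. Ccn3, a growth-modulating CCN protein, was at 660.2 CPM at 3 d, 103 at 3 w, 65.3 at 16 w, 83.5 at 78 w and 238 (149 to 360.4) in the injured library, beside 171, 11.4, 11.4, 16.9 and 14.0 CPM, whereas its relatives Ccn1 and Ccn2, which respond to mechanical load, had geometric mean ratios of 0.463 and 0.308. Both were higher at 3 d, with ratios of 1.46 (1.39 to 1.53) and 1.22 (1.16 to 1.29), and lower in the other 4 libraries. Has1, a hyaluronan synthase, was at 17.6 CPM at 3 d, 1206 at 3 w, 393 at 16 w, 809 at 78 w and 249 (158 to 373) in the injured library, beside 5.47, 136, 95.2, 176 and 46.7 CPM. Tnc, the tenascin of tendon and wounds, was low in each library, with a ratio of 0.184. Of 13 collagen genes 2 were higher and 1 lower. Col3a1, the collagen of loose tissue, was at 9673 CPM at 3 d, 14599.9 at 3 w, 3103 at 16 w, 2159 at 78 w and 11319 (10643 to 12026) in the injured library, beside 7862, 4984, 577, 932 and 4499 CPM, while Col1a1, the main collagen of dense tissue, had a geometric mean ratio of 0.912 with ratios of 0.614 to 1.80. Col6a6, a beaded-filament collagen counted with the Col15a1-type genes, had a ratio of 4.71.

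Some complement, cytokine and chemokine genes were higher. Of 9 complement genes measured, 4 were higher and 1 lower, with a median log2 ratio of 2.06. Serping1, the C1 inhibitor, was at 116 CPM at 3 d, 1807 at 3 w, 3138 at 16 w, 2689 at 78 w and 985 (793 to 1209) in the injured library, beside 70.3, 253, 341, 290.2 and 157 CPM. C1s1, a protease subunit of C1, and Cfb, factor B of the alternative pathway, had ratios of 6.66 and 6.39. C3, the central complement component, was higher from 3 w on but rested on 3 UMIs at 3 d, where it stood at 0.214 CPM beside 0.295. Cd59a, which blocks the terminal complex, was the gene below the other stromal cells, with ratios of 0 to 0.532 and 0 UMIs in the injured library. Of 15 cytokine and chemokine genes, 5 were higher and 1 lower with a median log2 ratio of 1.39. Il33, an alarmin of stromal nuclei, was at 14.3 CPM at 3 d, 89.8 at 3 w, 88.0 at 16 w, 182 at 78 w and 54.1 (17.6 to 126) in the injured library, beside 9.70, 3.33, 5.40, 14.5 and 4.51 CPM. Ccl7, a monocyte chemokine, had a ratio of 8.61, and its neighbour Ccl2 one of 4.97. Ptx3, a soluble pattern-recognition molecule outside these lists, had ratios of 3.44 to 27.4. Cxcl14, a chemokine of resting epithelia and stroma, was lower with ratios of 0.158 to 0.745.

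Among growth factor axes, 4 of 9 IGF-axis genes were higher and 0 lower, with a median log2 ratio of 1.02. Igfbp4, an IGF-binding protein, was at 1724 CPM at 3 d, 675 at 3 w, 994 at 16 w, 1364 at 78 w and 1320.2 (1096 to 1576) in the injured library, beside 1326, 85.6, 61.0, 125 and 299 CPM, and Igfbp6 at 225 CPM at 3 d, 1528 at 3 w, 3429 at 16 w, 3401 at 78 w and 2337 (2036 to 2671) in the injured library, beside 63.2, 422, 653, 849 and 476 CPM. The 3 d ratio of Igfbp4 was 1.30 (1.28 to 1.32) and its 16 w ratio 16.3 (15.3 to 17.3). Of 18 genes of the TGF-beta and BMP axis, 4 were higher and 1 lower. Fstl1, a secreted follistatin-like protein, Fst, the activin antagonist follistatin, and Ltbp1, which tethers latent TGF-beta, had ratios of 3.34, 2.78 and 2.96, and Grem1, a BMP antagonist, one of 0.228. Of 12 Wnt modulators 1 was higher and 3 lower. Sfrp4, a secreted Wnt antagonist, was at 7.00 CPM at 3 d, 77.7 at 3 w, 133 at 16 w, 532 at 78 w and 75.7 (30.5 to 156) in the injured library, beside 3.03, 10.6, 14.8, 44.5 and 9.14 CPM, and Wif1, another such antagonist, at 2.50 CPM at 3 d, 2.63 at 3 w, 11.4 at 16 w, 0.208 at 78 w and 0 in the injured library, beside 11.2, 55.1, 72.8, 44.2 and 25.8 CPM.

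Transcription factors gave a partial signature. Of 21 measured, 6 were higher and 1 lower, with a median log2 ratio of 0.38. Ebf2, an early B cell factor of mesenchymal progenitors, was at 92.1 CPM at 3 d, 43.6 at 3 w, 55.4 at 16 w, 58.7 at 78 w and 64.9 (23.8 to 141) in the injured library, beside 33.7, 4.31, 4.80, 6.02 and 7.63 CPM, and its relative Ebf1 had ratios of 2.32 to 7.92. Osr1, a marker of fibro-adipogenic progenitors, had a ratio of 3.81, but on 2 UMIs its injured ratio was 1.90 (0.228 to 6.91). Nfatc1, a calcium-dependent factor, and Nr2f2, a nuclear receptor, lay below the other stromal cells in each library at 0.514 and 0.692. Of 20 proteases and inhibitors 6 were higher and 0 lower, among them Pcolce2, an enhancer of procollagen processing, at 4.10, Pcsk6, a proprotein convertase, at 3.72, and Serpinf1, the anti-angiogenic factor PEDF, at 2.71. Of 18 interferon-response genes 4 were higher and 0 lower, with Ifi27l2a at 349 CPM at 3 d, 298 at 3 w, 1322 at 16 w, 1144 at 78 w and 1169 (959 to 1411) in the injured library, beside 253, 26.0, 70.8, 96.4 and 438 CPM. Of 14 genes of retinoid, lipid and detoxification pathways 4 were higher and 3 lower. Cyp1b1, a monooxygenase, was at a ratio of 6.75 and Crabp1, a retinoic acid-binding protein, at 0.231. Of 14 surface proteins used to sort stromal progenitors 3 were higher and 2 lower. Thy1, the antigen CD90, had a ratio of 2.68 and Nt5e, the ectonucleotidase CD73, one of 0.137. None of the 14 cell cycle, 16 immediate early and 9 heat shock genes was 2-fold apart in these terms, in either direction.

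Chondrogenic and tendon genes were the low end. All 14 disc chondrogenic genes that reached the count, Chad left aside, were at least 2-fold lower and lower in each library, with a median log2 ratio of −2.16, and so were 6 of 9 tenocyte genes with a median of −1.34. Low Chad was itself a criterion, and Chad is a gene of the same list, so this contrast is not independent of the selection. Acan, the cartilage proteoglycan aggrecan, was at 32.4 CPM at 3 d, 2.63 at 3 w, 0.710 at 16 w, 5.21 at 78 w and 10.8 (0.274 to 60.3) in the injured library, beside 110.2, 27.6, 37.9, 123 and 62.0 CPM. Comp, a pentameric matrix protein of cartilage and tendon, was at 35.1 CPM at 3 d, 2225 at 3 w, 1907 at 16 w, 1862 at 78 w and 1320.2 (1096 to 1576) in the injured library, beside 56.9, 5612, 5865, 8247 and 3307 CPM. Sox9, the chondrogenic transcription factor, and Scx, the tendon factor scleraxis, had ratios of 0.219 to 0.398 and 0.159 to 0.269. Fmod was at 63.3 CPM at 3 d, 697 at 3 w, 502 at 16 w, 900.2 at 78 w and 996 (803 to 1221) in the injured library, beside 314, 3983, 4450.1, 4851 and 4318 CPM. Ibsp, a bone sialoprotein, had the lowest ratio of the genes ranked at 0.0527, with 0 UMIs at 3 d and in the injured library. Prg4, the lubricin of the joint surface, was higher at 3 d and 3 w and lower in the other libraries, at 352 CPM at 3 d, 3559 at 3 w, 4299 at 16 w, 7054 at 78 w and 2932 (2594 to 3303) in the injured library, beside 95.1, 3046, 8145, 13694 and 4052 CPM.

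A closer group of cells gave fewer calls. Other stromal cells with a UMI of Clec3b or Dpp4, with low Chad and with 0 UMIs of Pi16 numbered 2075, 748, 669, 978 and 750. Against them 72 genes were at least 2-fold higher in the Pi16 fibroblasts and 115 lower, in place of 305 and 293 against all other stromal cells. How many genes the 2 sets of calls shared was not counted. In the closer group Ly6a was at 127, 211, 295, 534 and 308 CPM, Mfap5 at 669, 220.4, 127, 138 and 160.0 CPM, and Scara5 at 9.53, 25.8, 13.0, 18.0 and 10.4 CPM, in each library below the Pi16 fibroblasts. These genes led the ranking against all other stromal cells, and others were not always higher. In cells that met the other criteria with 0 Pi16 UMIs, Sema3c was at 101 CPM at 3 w and Creb5 at 298 CPM at 78 w. The classes of 2, 3 to 5 and 6 or more UMIs had 56.6, 79.0 and 94.1 CPM, and 273, 231 and 216 CPM. Sema3c was higher in these classes at 3 d, as was Creb5 at 3 w. Counts by list against this group are not given.

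The remaining comparisons set Pi16 fibroblasts of different libraries side by side and share libraries with each other. From 3 d to 3 w, 14.1% of 9150 genes with at least 100 UMIs were at least 2-fold higher and 18% at least 2-fold lower at 3 w. That minimum was summed over both libraries, here and in the later comparisons, so the deeper library alone can bring in genes low in the other. Higher and lower counts are therefore not on equal terms where depths differ. Imprinted and cell cycle genes were mostly lower at 3 w, and complement, cytokine and chemokine genes mostly higher. Of 12 imprinted growth genes 11 were lower and 0 higher, with a median log2 ratio of −3.18 in Pi16 fibroblasts and −2.49 in other stromal cells, beside −0.07 over all genes. Igf2, the fetal insulin-like growth factor, was at 2565 CPM at 3 d, 47.3 at 3 w, 24.1 at 16 w, 5.83 at 78 w and 10.8 (0.274 to 60.3) in the injured library, beside 1556, 25.4, 15.3, 9.38 and 4.82 CPM. H19, its imprinted non-coding neighbour, was at 1999 CPM at 3 d, 8.93 at 3 w, 11.4 at 16 w, 4.79 at 78 w and 43.3 (11.8 to 111) in the injured library, and its 3 w level was 0.00447 times (0.00260 to 0.00715) the 3 d level, beside 0.00304 times in other stromal cells. Of 14 cell cycle genes 13 were lower and 0 higher with medians of −3.82 in both groups. Mki67, the proliferation antigen, was at 28.7 CPM at 3 d, 1.05 at 3 w, 0.710 at 16 w, 0.416 at 78 w and 0 in the injured library.

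Elastic-fibre genes were mostly lower at 3 w than at 3 d, 10 of 16 with 2 higher. Eln at 3 w was at 0.167 times (0.159 to 0.175) its 3 d level and at 0.0548 times in other stromal cells. Fbn2, the fetal fibrillin, was at 767 CPM at 3 d, 5.25 at 3 w, 0.710 at 16 w, 0.208 at 78 w and 0 in the injured library, and Fbn1, the adult fibrillin, at 1196 CPM at 3 d, 382 at 3 w, 344 at 16 w, 302 at 78 w and 162 (90.8 to 268) in the injured library. Mfap5 was an exception in Pi16 fibroblasts. Its 3 w level was 0.888 times (0.849 to 0.928) the 3 d level, whereas in other stromal cells the ratio was 0.126. The direction of the first ratio was not stable, since it was 1.19 once all cells were thinned to 2000 UMIs. Ltbp4, a latent TGF-beta binding protein of elastic fibres, was 1 of the 2 higher genes, at 230.3 CPM at 3 d, 867 at 3 w, 1333 at 16 w, 1267 at 78 w and 660.1 (505 to 848) in the injured library.

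Complement genes went the other way, with 6 of 7 at least 2-fold higher at 3 w, 1 lower and a median log2 ratio of 5.56, beside 2.41 for the same genes in other stromal cells. C3 was at 0.214 CPM at 3 d, 235 at 3 w, 979.5 at 16 w, 1044 at 78 w and 119 (59.4 to 213) in the injured library. Against 3 UMIs at 3 d, C3 was 1095-fold higher (372 to 5328) at 3 w. In other stromal cells its ratio was 43.7. C3 UMIs were found in 3 of 1070, 53 of 124, 109 of 140, 377 of 432 and 4 of 20 Pi16 fibroblasts. Of 13 cytokine and chemokine genes 9 were higher and 0 lower, with medians of 2.20 and, in other stromal cells, 0.57. Ccl2 was 20.4-fold higher (18.6 to 22.4), with 1760 UMIs in 35 of 124 cells at 3 w. Il6, an inflammatory cytokine, was at 12.9 CPM at 3 d, 524 at 3 w, 49.0 at 16 w, 121 at 78 w and 0 in the injured library, with 997 UMIs in 66 cells at 3 w. Of 16 immediate early genes 11 were higher and 0 lower, with medians of 1.17 and 1.09. Gsn, the actin-severing protein gelsolin, was at 434 CPM at 3 d, 16195 at 3 w, 25526 at 16 w, 16188 at 78 w and 6817 (6295 to 7371) in the injured library, beside 461, 10093, 14293, 7722 and 4600.0 CPM.

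Among the 10 genes with the highest 3 w to 3 d ratio were C3, Galnt15, Inmt, Angptl7, AI607873, Xdh, Myoc, Tifa and Cilp2, and each of these was also higher at 3 w in other stromal cells. Galnt15, a glycosyltransferase, was 967-fold higher (329 to 4711), with a ratio of 397 in other stromal cells. Angptl7, a secreted angiopoietin-like protein, was 441-fold higher (257 to 833), and its ratio in other stromal cells was 3687. Myoc, the matrix protein myocilin, was 252-fold higher (185 to 352), with 212 in other stromal cells. Inmt, a methyltransferase, had 0 UMIs at 3 d and 345 UMIs in 36 cells at 3 w, and was at least 845-fold higher against a floor of 3 UMIs. Its levels were 0 CPM at 3 d, 181 at 3 w, 212 at 16 w, 167 at 78 w and 0 in the injured library.

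**Figure D4:**
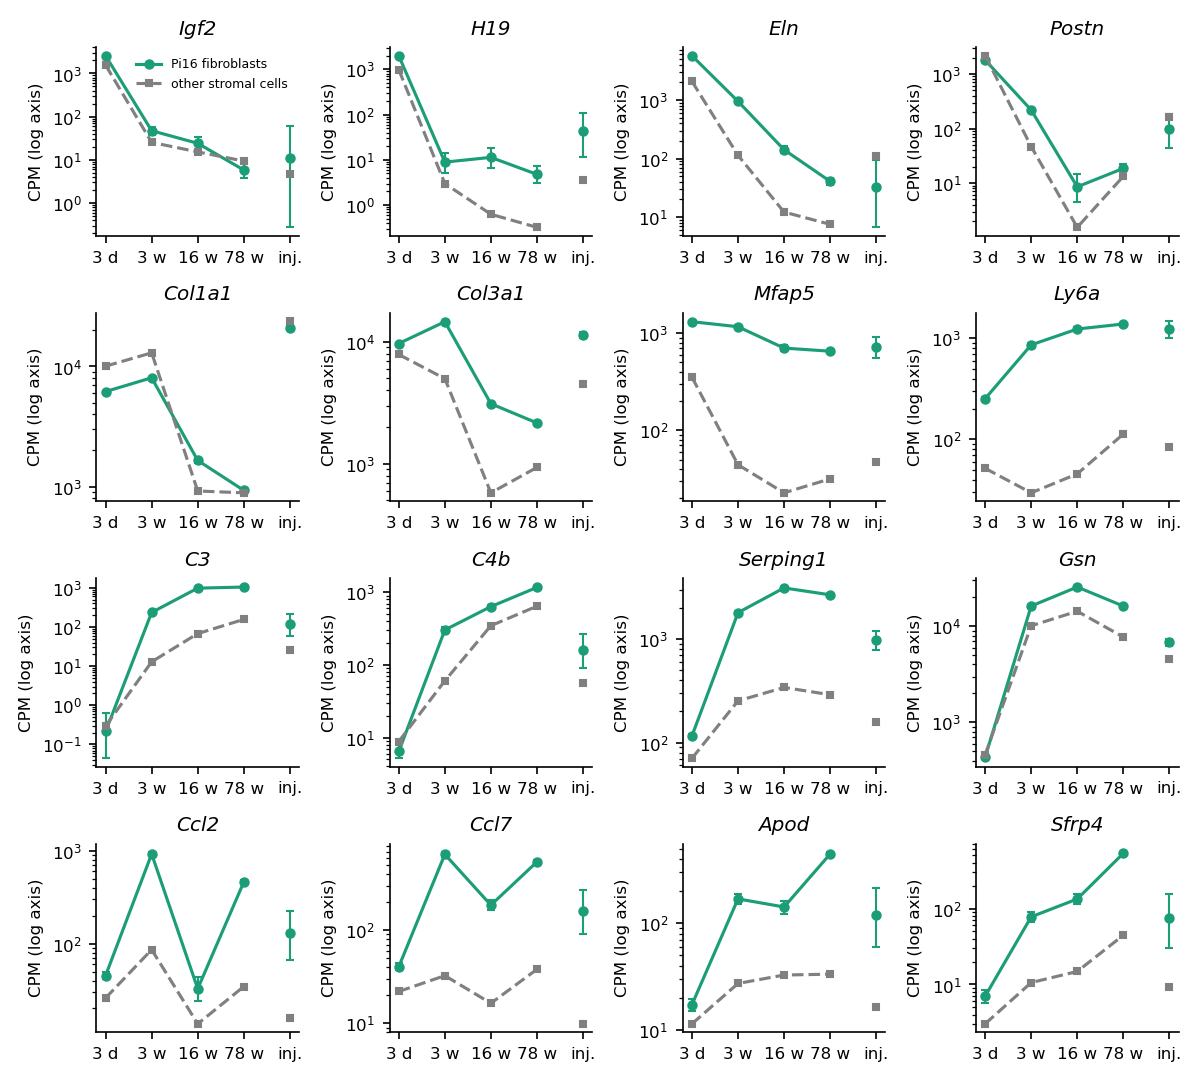
CPM (log axis) of 16 named genes in Pi16 fibroblasts (green, with 95% counting intervals) and other stromal cells (grey) of each library; lines join the 4 normal stages, and the injured library stands apart at the right. Igf2, H19, Eln and Postn were highest at 3 d in both groups, while C3, C4b and Serping1 were lowest at 3 d and higher in Pi16 fibroblasts than in other stromal cells from 3 w on.

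From 3 w to 16 w smaller shares of genes were past 2-fold than from 3 d to 3 w: 3.32% of 4102 genes were at least 2-fold higher at 16 w and 6.39% lower. Collagens were lower, 7 of 13 with 0 higher and medians of −1.05 and, in other stromal cells, −1.19. Col1a1 was at 6182 CPM at 3 d, 8055 at 3 w, 1652 at 16 w, 931 at 78 w and 21036 (20111 to 21992) in the injured library, so that the 16 w level was 0.205 times (0.196 to 0.214) the 3 w level, and 0.0708 times in other stromal cells. Col3a1 was at 0.213 times (0.206 to 0.219). Postn, the matricellular protein periostin of growing and healing tissue, was at 1805 CPM at 3 d, 218 at 3 w, 8.52 at 16 w, 18.5 at 78 w and 97.4 (44.5 to 185) in the injured library. Of 13 cytokine and chemokine genes 6 were lower and 1 higher at 16 w. Ccl2 was at 0.0353 times (0.0258 to 0.0473) the 3 w level and Il6 at 0.0936 times (0.0722 to 0.119), beside 0.159 and 0.383 times in other stromal cells. Spp1, the secreted phosphoprotein osteopontin, was at 0.0336 times (0.0219 to 0.0496), but 803 of its 1045 UMIs at 3 w lay in 1 of 124 cells. Heat shock genes were higher, 5 of 9 with 0 lower. These genes are known to respond to dissociation and handling, and what part handling had here was not tested. Hspa1b, an inducible HSP70, was 5.83-fold higher (5.27 to 6.46) and 4.94-fold higher in other stromal cells. Of 7 complement genes 4 were higher and 0 lower, with medians of 1.07 and, in other stromal cells, 1.19. C3 was 4.17-fold higher (3.75 to 4.65), beside 5.25-fold higher in other stromal cells. Cxcl13, a chemokine for B cells, had 1 UMI at 3 w and 121 UMIs in 6 of 140 cells at 16 w. Its level was 164-fold higher (28.8 to 6513), beside 91.9-fold higher in other stromal cells.

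From 16 w to 78 w the shares past 2-fold were the smallest of the stage comparisons. Of 6024 genes 1.96% were at least 2-fold higher at 78 w and 0.531% lower. The summed UMIs were 4802489 at 78 w and 1408814 at 16 w, so these shares are not on equal terms. Of 14 cytokine and chemokine genes 7 were higher and 0 lower, with medians of 0.99 and, in other stromal cells, 0.67. Ccl2 was 14.1-fold higher (10.5 to 19.3), with 2207 UMIs in 125 of 432 cells, beside 2.52-fold higher in other stromal cells. Ccl7 was 2.91-fold higher (2.57 to 3.32) and Il33 2.07-fold higher (1.71 to 2.52). At the levels given above, Il33 was also higher at 78 w in other stromal cells, by a larger ratio. The ratio of Ccl7 in other stromal cells is not given here. Sfrp4 was 3.99-fold higher (3.44 to 4.65), with UMIs in 282 of 432 cells, and Apod 3.13-fold higher (2.71 to 3.64), with UMIs in 288 cells, beside 3.00 and 1.02 in other stromal cells. Of 9 myofibroblast genes 8 were higher and 0 lower, with medians of 1.88 and 0.15, and of 5 mural genes 3 were higher. The levels of Myh11, Tagln and Acta2, smooth muscle actin, lay almost wholly in the 8 cells with mural UMIs: without them Acta2 was at 7.07 CPM at 78 w, in place of 82.0, and at 7.10 CPM at 16 w. Without them Tagln was at 3.21 CPM at 78 w, beside 4.97 at 16 w. Myl9, another mural gene, was at 9.63 CPM in place of 30.8, beside 14.2 at 16 w. The list counts and medians just given include these 8 cells. Saa3, an acute-phase serum amyloid, had all of its 477 UMIs at 78 w in 1 cell. Lower at 78 w were Igfbp3, an IGF-binding protein, at 0.287 times (0.258 to 0.320) the 16 w level, Eln at 0.289 times (0.236 to 0.354), Peg3, an imprinted gene, at 0.284 times (0.220 to 0.367) and Fos, an immediate early factor, at 0.377 times (0.367 to 0.387). The ratios in other stromal cells were 0.389, 0.618, 0.490 and 0.504.

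Across the whole interval from 3 d to 78 w, 12.5% of 9559 genes were at least 2-fold higher at 78 w and 15.5% lower, with a median log2 ratio over all genes of −0.11. Collagens were lower in 12 of 13 cases with 0 higher, and imprinted genes in 11 of 12 with 0 higher. Col1a1 at 78 w was at 0.151 times (0.146 to 0.155) its 3 d level, Col3a1 at 0.223 times (0.219 to 0.228) and Eln at 0.00721 times (0.00623 to 0.00829), beside 0.0883, 0.119 and 0.00365 times in other stromal cells. The ratio was below that of the other cells for imprinted genes, with medians of −4.14 and −2.58, and among them Dlk1, a Notch-like surface ligand, was at 1381 CPM at 3 d, 65.6 at 3 w, 9.94 at 16 w, 40.4 at 78 w and 10.8 (0.274 to 60.3) in the injured library, beside 1017, 272, 362, 251 and 138 CPM. Meg3, a non-coding transcript of the same imprinted locus, was at 2749 CPM at 3 d, 1119.5 at 3 w, 819 at 16 w, 401 at 78 w and 498 (364 to 664) in the injured library, beside 2616, 1076, 1335, 1073 and 663 CPM.

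Complement genes and a majority of the cytokine and chemokine genes were higher at 78 w than at 3 d. Of 8 complement genes 7 were higher and 0 lower, with medians of 6.13 in Pi16 fibroblasts and 3.1 in other stromal cells. C4b, complement component 4, was at 6.43 CPM at 3 d, 303 at 3 w, 636 at 16 w, 1168 at 78 w and 162 (90.8 to 268) in the injured library, beside 8.82, 60.4, 347, 644 and 55.5 CPM. Of 14 cytokine and chemokine genes 9 were higher and 0 lower, with medians of 2.57 and 0.49, and of 20 proteases and inhibitors 13 were higher and 1 lower, with medians of 1.46 and 0.25. Interferon-response genes had medians of 1.16 and −0.17, with 10 of 18 higher and 3 lower in Pi16 fibroblasts. Ifitm3, an antiviral membrane protein, was at 212 CPM at 3 d, 808 at 3 w, 1226 at 16 w, 1509 at 78 w and 530.2 (392 to 701) in the injured library, beside 244, 142, 170.0, 227 and 283 CPM, and H2-D1, a class I histocompatibility gene, at 61.1 CPM at 3 d, 611 at 3 w, 652 at 16 w, 772 at 78 w and 389.6 (273 to 539) in the injured library, beside 57.6, 353, 374, 487 and 215 CPM. Ifit1, an interferon-induced RNA-binding protein, was 3.55-fold higher (3.02 to 4.18), but its 335 UMIs at 78 w came from 24 of 432 cells, 114 of them from 1 cell. Of 13 surface proteins 8 were higher and 0 lower. Ly6a was 5.48-fold higher (5.26 to 5.71) and Thy1 5.57-fold higher (4.74 to 6.55), beside 2.18 and 2.27 in other stromal cells. Fn1, fibronectin, was at 904 CPM at 3 d, 2354 at 3 w, 2981 at 16 w, 5272 at 78 w and 5097 (4647 to 5578) in the injured library, beside 791, 1679, 1854, 4152 and 3143 CPM. No difference of these ratios between the 2 cell groups could be tested with 1 library a stage.

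**Figure D5:**
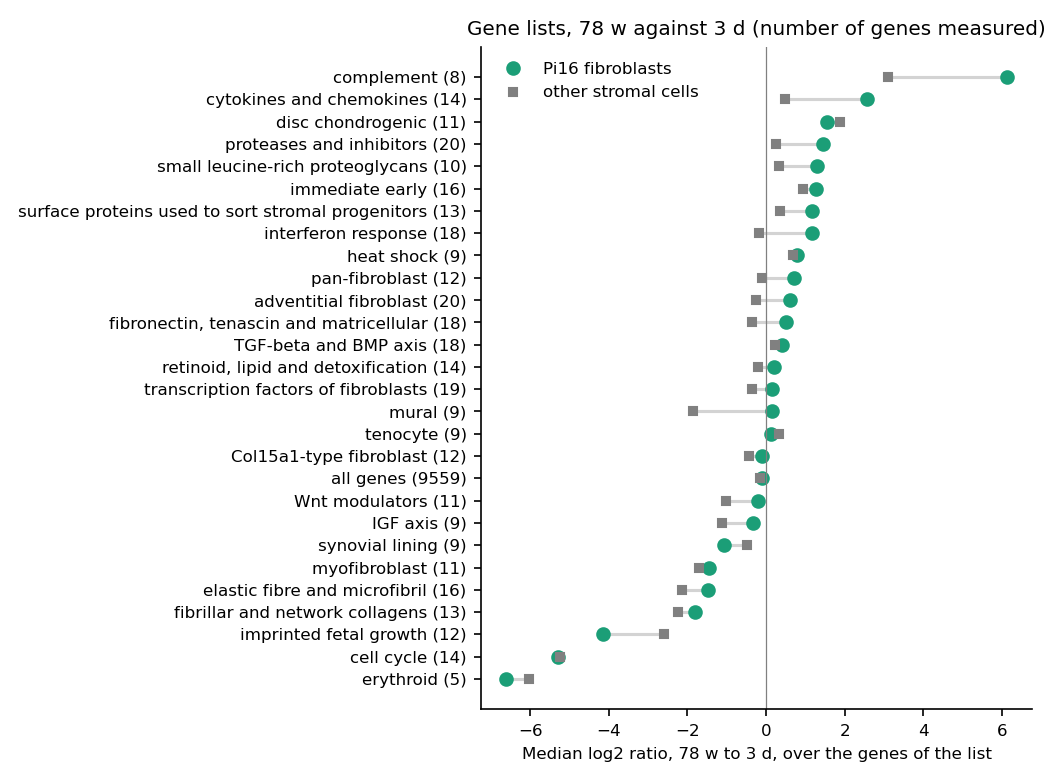
Median log2 ratio of 78 w to 3 d over each gene list with at least 5 genes measured (number in brackets), in Pi16 fibroblasts (green) and other stromal cells (grey). The widest gap on the higher side was that of the complement list, 6.13 against 3.1, and the imprinted list was lower in Pi16 fibroblasts, −4.14 against −2.58; the mural list rests in part on 8 cells at 78 w and 31 at 3 d, and mural cells are left out of the grey group.

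The injured library was compared with both the 3 w and the 16 w library. Its mice were taken as 7 weeks old from the methods, and these are the stages on either side of that age. Injury, age, sex, genotype and library cannot be told apart here, and the 20 Pi16 fibroblasts rest on 92414 UMIs. Against 3 w, 6.94% of 2753 genes were at least 2-fold higher and 22.6% lower. Against 16 w, 7.7% of 1987 genes were higher and 20.6% lower. Past 2-fold against both were 4.65% of 1915 genes (89) on the higher side and 14.3% (273) on the lower. Pi16 fibroblasts held 1904399 UMIs at 3 w and 1408814 at 16 w, so these libraries alone can bring in genes low in the injured one. Higher and lower counts are therefore not on equal terms, here and for the lists below, and an excess of lower genes cannot be read from them. The median log2 ratio of all genes was −0.30 and −0.18. With scaling by the median of ratios the 89 and 273 genes became 142 and 189, so that the balance of directions also depended on the scaling.

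Collagen genes were mostly higher in the injured library than at 16 w, 9 of 11 with 0 lower, whereas against 3 w 1 of 12 was higher and 0 lower. Col1a1 was 2.61-fold higher (2.49 to 2.74) than at 3 w and 12.7-fold higher (12.0 to 13.5) than at 16 w, beside 1.84 and 25.9 in other stromal cells. Igf1, the insulin-like growth factor, was at 514 CPM at 3 d, 83.0 at 3 w, 74.5 at 16 w, 189 at 78 w and 335 (228 to 476) in the injured library, beside 498, 42.5, 26.8, 45.1 and 216 CPM, while of 7 IGF-axis genes 1 was higher and 1 lower than at 3 w, and 2 were higher and 0 lower than at 16 w. Spp1 had 194 UMIs in 5 of 20 cells, 96 of them in 1 cell, and stood at 2099 CPM, beside 404 CPM in other stromal cells. Mmp2, a gelatinase, was at 327 CPM at 3 d, 768 at 3 w, 278 at 16 w, 391 at 78 w and 1266 (1047 to 1517) in the injured library, beside 412, 289, 85.9, 159 and 541 CPM, whereas of the proteases and inhibitors 0 of 16 were higher and 5 lower than at 3 w, and 2 of 15 were higher and 8 lower than at 16 w, with median log2 ratios of −0.82 and −1.05. Postn, by contrast, was at 97.4 CPM (44.5 to 185), between its 3 w and 16 w levels.

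Immediate early genes were low, 10 of 15 against 3 w and 11 of 15 against 16 w with 0 higher, with medians of −1.77 and −2.13 beside −0.23 and −1.01 in other stromal cells. Fos was at 1289 CPM at 3 d, 2927 at 3 w, 6790.1 at 16 w, 2559.9 at 78 w and 617 (467 to 799) in the injured library, beside 1293, 2233, 3713, 1870.3 and 1504 CPM. Btg2, an early anti-proliferative gene, had 2 UMIs and was at 0.0326 times (0.00394 to 0.118) the 3 w level. Complement genes were lower than at 16 w in 6 of 7 cases with 0 higher, and lower than at 3 w in 2 of 7. Serping1 was at 0.314 times (0.252 to 0.386) its 16 w level and at 0.545 times (0.437 to 0.671) its 3 w level, and C3 at 0.122 times (0.0605 to 0.218) and 0.507 times (0.251 to 0.916) on 11 UMIs in 4 cells. In other stromal cells the Serping1 ratios were 0.461 and 0.622. Of the elastic-fibre genes 7 of 9 were lower than at 16 w, and 7 of 12 lower than at 3 w. Fbln2, fibulin-2, was at 551 CPM at 3 d, 550.3 at 3 w, 968 at 16 w, 795 at 78 w and 249 (158 to 373) in the injured library, and its ratio to 16 w was 0.257 times (0.162 to 0.387), beside 0.485 in other stromal cells. Of 16 adventitial genes 3 were higher and 3 lower than at 3 w, with a median log2 ratio of 0.25, and 2 were higher and 2 lower than at 16 w, with a median of −0.49. Procr was higher against both, 2.04-fold (1.57 to 2.61) and 5.08-fold (3.81 to 6.70), while Fbn1 was lower against both, at 0.425 times (0.236 to 0.705) and 0.471 times (0.262 to 0.785). Ly6a was 1.43-fold higher (1.17 to 1.73) than at 3 w and at 0.998 times (0.818 to 1.21) its 16 w level, and Scara5 was at 173 CPM (99.0 to 281) beside 3.04 CPM in other stromal cells. By the smaller of the ratios to 3 w and to 16 w, the highest gene was Gm26870, an unnamed transcript, with 6168 CPM in the injured library, 253 at 3 w and 122 at 16 w, and the other stromal cells had 7582, 512 and 147 CPM. Its 570 UMIs in Pi16 fibroblasts came from 11 of 20 cells, 285 of them from 1 cell, and the high level was shared by the other stromal cells.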

How the data were processed

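Single-cell libraries of digested TMJ discs, 1 for each of 5 conditions, were analysed from the UMI count matrices that the authors deposited, which hold 27998 genes. The counts are raw UMI counts per gene and barcode, made by the authors with Cell Ranger, given as version 3.1 in the submitters' processing notes and as 4.0.0 in the file headers, and the notes name mm10 as the genome. Coordinates were looked up in GENCODE M21 (GRCm38) by Ensembl identifier, which found 27645 of the 27998 genes.

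Pi16 fibroblasts were chosen by the criteria given above. The selecting genes, the members and the 33 gene lists (431 genes) were chosen with earlier results of these data known. UMIs were summed over the cells of a group in each library and divided by the group's total to give CPM. Genes needed at least 100 UMIs over the groups compared, or for lower genes as many expected from the level in the other group, a minimum that the higher group alone can meet. A gene was called past 2-fold by its ratio. For the geometric mean over libraries 1 count was added to both groups, at the depth of the Pi16 fibroblasts. Levels carry exact Poisson intervals, shares Clopper-Pearson intervals and ratios exact conditional intervals, all at 95% and for counting error only. UMIs are molecules, but the cells of 1 library are not replicates, so no test was made. A ratio to 0 UMIs was taken against a floor of 3 UMIs. Genes named were those of the criteria and the lists, and the 10 with the highest and lowest ratio in each comparison, with exceptions stated as such, and 1 such gene is not reported here.

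Cells were also thinned without replacement to 2000 or 4000 UMIs. Scrublet as run in scanpy 1.11.5 marked 0, 2, 1, 0 and 2 barcodes and so did not work, and doublets were kept in the values given. Cells with at least 2 UMIs of a vessel-wall gene were kept as well. Simulated counts for 9530 genes of the 78 w against 3 d comparison, with 197 genes changed 4-fold, gave 100% of the changed genes past 2-fold, 0.0321% of the others, and the true ratio inside 95.7% of intervals. The simulated counts were Poisson draws, which is also what the intervals assume, so these figures check the calculation only. UMIs concentrated in few cells, as for Spp1 and Saa3, were not simulated. Python 3.11.15, numpy 2.4.6, scipy 1.17.1, pandas 2.3.3 and matplotlib 3.10.9 were used. Alternatives tried were other minimums of Pi16, of UMIs and of mitochondrial share, no requirement of Clec3b or Dpp4, thinning, equal weight per cell, scaling by the median of ratios, a minimum of 30 UMIs and a nearer reference group.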

Additional observations from a re-analysis of the deposited data

Results flagged for a closer look

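Several genes moved in opposite directions in Pi16 fibroblasts and in other stromal cells of the same libraries, each past 2-fold with its whole counting interval. They were picked after their values were seen, the difference was not tested for any of them because each stage had 1 library, and both groups of cells came from the same 5 libraries. The share of cells high in Chad among the other stromal cells differed between stages, as given above. A change of make-up and a change of level in that group are therefore mixed in its ratios, and the nearer reference group was not used here.

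From 3 d to 3 w, 5 of 16 genes of opposite direction met this. Il33, the nuclear alarmin, was 6.28-fold higher (5.09 to 7.74) in Pi16 fibroblasts and at 0.343 times in other stromal cells. S1pr3, a receptor for sphingosine 1-phosphate, was 3.94-fold higher (2.76 to 5.57) and at 0.363 times. Opcml, a cell adhesion molecule, was 3.53-fold higher (2.30 to 5.31) and at 0.386 times. Pi15, a secreted relative of Pi16, was 3.28-fold higher (2.67 to 4.00) and at 0.406 times. Bmp1, the procollagen C-proteinase, was 2.37-fold higher (2.04 to 2.73) and at 0.404 times.

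Thbs1, the matricellular protein thrombospondin-1, went down and up again. At 16 w it was at 0.129 times (0.0600 to 0.246) its 3 w level in Pi16 fibroblasts and 4.00-fold higher in other stromal cells, and at 78 w it was 10.0-fold higher (5.39 to 21.1) against 16 w and at 0.213 times in other stromal cells. Few cells carried these values, with 105 UMIs in 11 of 124 cells at 3 w, 10 UMIs in 10 of 140 at 16 w and 342 UMIs in 27 of 432 at 78 w, and after thinning to 2000 UMIs the 78 w to 16 w ratio was 0.193.

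From 3 d to 78 w, 16 of 31 genes of opposite direction met the interval condition. Higher in Pi16 fibroblasts were Dpep1, a membrane dipeptidase, at 9.12-fold higher (6.03 to 14.1) beside 0.274 times in other stromal cells, and C1qtnf1, a secreted C1q-like protein, at 4.44-fold higher (3.58 to 5.51) beside 0.376. Interferon-response genes were Ifit1, at 3.55-fold higher (3.02 to 4.18) beside 0.318, and Ifi27l2a, at 3.28-fold higher (3.15 to 3.41) beside 0.381. Enzymes were Cyp2j6, a cytochrome P450, at 3.22-fold higher (2.21 to 4.69) beside 0.375, Aoc3, an amine oxidase, at 3.18-fold higher (2.16 to 4.69) beside 0.296, and Qpct, a glutaminyl cyclase, at 2.77-fold higher (2.34 to 3.28) beside 0.224. Matrix and surface genes were Col4a5, a basement-membrane collagen chain, at 2.79-fold higher (2.12 to 3.65) beside 0.326, Srpx, a sushi-repeat protein, at 2.67-fold higher (2.40 to 2.96) beside 0.255, and Flrt2, an adhesion and guidance receptor, at 2.59-fold higher (2.20 to 3.04) beside 0.413. Bmp1 was again among them, at 2.61-fold higher (2.35 to 2.90) beside 0.317, as was Abcc9, at 2.47-fold higher (2.06 to 2.96) beside 0.163.

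Lower in Pi16 fibroblasts at 78 w were Bglap2, an osteocalcin gene with a near-identical neighbour, at 0.0662 times (0.0135 to 0.198) beside a 2.59-fold higher level in other stromal cells (but 1.5-fold higher with a minimum of 1 Pi16 UMI), Tesc, a calcium-binding protein, at 0.194 times (0.121 to 0.296) beside 4.06, Ddah1, which degrades methylated arginine, at 0.202 times (0.137 to 0.290) beside 2.17, and Hbegf, a growth factor of the synovial lining, at 0.432 times (0.391 to 0.477) beside 3.94.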

How the results depend on the processing

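No paired analysis was possible because each condition had 1 library, which leaves nothing to pair between stages. Pi16 fibroblasts and other stromal cells were compared within each library, without a test, since the criteria chose the cells. The shares of Pi16 fibroblasts at 3 d, 3 w, 16 w, 78 w and in the injured library were 13.2, 1.97, 2.23, 5.84 and 0.785% with a minimum of 1 Pi16 UMI. With a minimum of 3 UMIs they were 6.93% at 3 d, 4.31% at 78 w and 0.163% in the injured library. After thinning they were 1.87, 0.366, 0.848, 2.61 and 0.139% (2000 UMIs) and, at 3 d to 78 w, 4.25, 0.675, 1.27 and 3.43% (4000 UMIs). A minimum of 3000 UMIs gave 9.67% at 3 d, and no requirement of Clec3b or Dpp4 gave 11% at 3 d and 0.459% in the injured library. Thinning to 2000 UMIs cut the numbers of genes past 2-fold, higher and lower, to 108 and 76 against other stromal cells, 81 and 198 for 3 w against 3 d, 25 and 27 for 16 w against 3 w, 25 and 8 for 78 w against 16 w, 224 and 175 for 78 w against 3 d, and 13 and 10 for injured discs. Fewer genes reach 100 UMIs after thinning. A minimum of 30 UMIs gave 378 and 561 (16 w against 3 w), 303 and 165 (78 w against 16 w), and 265 and 775 (injured). The nearer reference group gave 72 and 115, scaling by the median of ratios gave 142 higher genes in injured discs, and without the injured library, an alternative chosen after seeing the data, 517 genes were higher and 339 lower than in other stromal cells. Limch1 against other stromal cells turned to 1.27 with equal weight per cell, 1.00 with scaling by the median of ratios and 1.02 against the nearer group, and Mfap5 at 3 w against 3 d to 1.19 after thinning to 2000 UMIs. Thinning also turned Thbs1 at 78 w against 16 w to 0.193, and a minimum of 1 Pi16 UMI turned Bglap2 at 78 w against 3 d to 1.5; the cause was not tested for any of these. Leaving out cells marked by Scrublet was not run, since it marked nearly none; leaving out the 6% of barcodes with the highest scores, or members with at least 2 UMIs of Rgs5 or Myh11, both chosen after seeing the data, moved none of these shares and counts by more than the limits used (1 counting interval or 1.5 times). The injured library had the fewest Pi16 fibroblasts (20) and the fewest UMIs in them (92414).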
